A study of Homo sapiens with 12 samples.

Results

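The genes described here are those of sterol and fatty acid synthesis, with the factors that control them and a few transcripts of sterol export and ester storage. A list of 36 gene symbols was looked up in a table of 19156 distinct symbols, and 35 were found; the transcript level of ELOVL6, a fatty acid elongase, was not analysed here. Of the 35 genes, 34 exceeded 1 FPKM (fragments per kilobase of transcript, scaled to sequencing depth) in at least 3 libraries and were tested. ABCG1, a sterol exporter, stood between 0 and 0.17 FPKM and was not tested. The 34 tested genes comprised 7 of the mevalonate branch, 11 of the steps that follow from squalene to cholesterol, 5 that control sterol-responsive transcription, 6 of fatty acid synthesis and desaturation, 2 targets of the liver X receptor (LXR), and 3 of sterol transport, ester hydrolysis and other functions.

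The data are 12 polyA RNA-seq libraries of 3 established human lines of kidney origin. A704 and CAKI-1 carry the label cancer, and HK2 carries the label normal. Each line received 1 of 4 reagents: a PTPN14 siRNA numbered 1 in the sample titles (PTPN14-1), a second PTPN14 siRNA (PTPN14-2), a LATS siRNA, or a non-targeting control siRNA. All were used at 25 nM with a lipid transfection reagent, and RNA was taken at 48 h. PTPN14 encodes a protein tyrosine phosphatase and LATS1 and LATS2 encode kinases of the Hippo pathway. Each combination of line and reagent gave 1 library, so each siRNA was seen in 3 libraries, 1 per line. No label ties the libraries to separate cultures, so the p-values reflect variation among these 12 libraries, part of which may be technical. The numbers of the PTPN14 siRNAs are swapped between the titles and the descriptions, and title numbers are used throughout. The labels give a separate growth medium for each line, with 10% serum, so differences between the lines and between their media cannot be told apart.

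The FPKM values of a library summed to between 344334 and 396360, and the effective depth estimated from their lowest steps was 17.0 to 23.4 M reads. PTPN14 transcript was 21.4, 25.2 and 28.7% of its level with control siRNA in A704, CAKI-1 and HK2 with PTPN14-1, and 37.3, 31.2 and 37.5% with PTPN14-2. With LATS siRNA, LATS1 was 30.7, 22.5 and 27.9% of its level with control siRNA in those lines, and LATS2 110.2, 122.3 and 98.2%. The labels do not say which LATS gene the siRNA was aimed at. Of the kidney factors, PAX8 was at 19.4 to 85.3 FPKM over all libraries, while PAX2 was at 9.81 to 14.3 FPKM in A704 and at or near 0 in CAKI-1 and HK2. Of the epithelial markers, KRT8 and KRT18 exceeded 71 FPKM in every library, KRT19 was at 1.06 to 1.70 FPKM in CAKI-1 and over 52 FPKM in the other lines, and EPCAM was at or near 0 outside HK2 and CDH1 outside A704. The mesenchymal VIM was at 318 to 1590 FPKM and COL1A1 at 0.42 to 1.49 FPKM. CD68, listed as a leukocyte marker and known in lysosomes, was at 134 to 198 FPKM in A704, 17.7 to 25.2 FPKM in CAKI-1 and 31.5 to 43.4 FPKM in HK2. The other leukocyte markers (PTPRC, CD3E) and those of endothelium (PECAM1, CDH5), adipocytes (ADIPOQ, PLIN1) and hepatocytes (ALB) did not exceed 0.7 FPKM in any library.

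Cells make cholesterol from acetyl-CoA by way of mevalonate, farnesyl diphosphate, squalene and lanosterol, and make fatty acids from acetyl-CoA by way of malonyl-CoA. Transcription of most of these enzymes is driven by the sterol regulatory element-binding proteins, which SREBF1 and SREBF2 encode. SCAP escorts these precursors from the endoplasmic reticulum when sterol is scarce, and INSIG1 and INSIG2 retain them there when sterol is plentiful. In the mevalonate branch ACAT2 and HMGCS1 build the carbon chain, MVK, PMVK and MVD phosphorylate and decarboxylate mevalonate, and IDI1 and FDPS join the isoprene units. FDFT1 makes squalene, SQLE and LSS close it to lanosterol, and CYP51A1, TM7SF2, MSMO1, NSDHL, HSD17B7, EBP, SC5D and DHCR7 remove methyl groups and move double bonds on the way to cholesterol. ACACA and FASN make palmitate from the acetyl-CoA that ACLY supplies, and SCD, FADS1 and FADS2 desaturate fatty acids. STARD4 carries sterol between membranes. LXR is activated by oxysterols and raises the transcription of exporters such as ABCA1 and of MYLIP, a ubiquitin ligase for lipoprotein receptors.

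Promoter sequences of 300 bases, 250 before and 50 after a start site of each gene, came from RefSeq (GRCh38.p14). Sequences were available for 31 of the 36 listed genes, all but FDFT1, SQLE, ACAT2, FASN and ABCG1. They were searched on both strands for 3 short motifs. The sterol regulatory element-like letters TCACNCCAC were found in 1 of 31 (3.2%), that of SREBF2, against 1.1% of the 27305 promoters in the table. The CCAAT letters, which the cofactor NF-Y binds, were found in 20 of 31 (64.5%), against 35.7% of all promoters and 36.9% of those of tested genes. The GC box letters GGGCGG were found in 27 of 31 (87.1%), against 44.6% of all promoters and 70.3% of those of tested genes. A match describes the letters in this window and does not establish a binding site. The start site used is not always the outer end of the gene. The ACLY window, chr17:41918973-41919272, lies inside the gene's span in the GENCODE annotation.

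Below, 3 promoters are printed 5′ to 3′ on the strand of their gene, with matches to these motifs or their reverse complements in capitals. SREBF2 is shown because it holds the sterol regulatory element-like letters (TCACCCCAC, starting 133 bases before the gene's start), NCEH1 because it was the transcript that changed with LATS siRNA, and MSMO1, added after its values were seen, because it passed the test with one PTPN14 siRNA and holds 4 CCAAT matches. The SREBF2 window is chr22:41832855-41833154 on the plus strand, the NCEH1 window chr3:172711018-172711317 on the minus strand, and the MSMO1 window chr4:165327419-165327718 on the plus strand.
SREBF2: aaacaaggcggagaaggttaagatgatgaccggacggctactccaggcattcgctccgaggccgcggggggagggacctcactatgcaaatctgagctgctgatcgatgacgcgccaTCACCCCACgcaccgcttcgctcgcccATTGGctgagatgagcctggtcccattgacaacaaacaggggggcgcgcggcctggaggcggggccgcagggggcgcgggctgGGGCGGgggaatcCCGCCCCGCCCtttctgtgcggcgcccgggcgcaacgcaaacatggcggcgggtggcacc
NCEH1: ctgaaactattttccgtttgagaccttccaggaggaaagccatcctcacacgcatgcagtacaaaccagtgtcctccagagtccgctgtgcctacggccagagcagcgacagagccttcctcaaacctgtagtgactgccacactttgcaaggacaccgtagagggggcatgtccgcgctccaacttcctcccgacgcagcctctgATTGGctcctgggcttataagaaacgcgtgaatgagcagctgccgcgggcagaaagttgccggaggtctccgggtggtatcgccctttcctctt
MSMO1: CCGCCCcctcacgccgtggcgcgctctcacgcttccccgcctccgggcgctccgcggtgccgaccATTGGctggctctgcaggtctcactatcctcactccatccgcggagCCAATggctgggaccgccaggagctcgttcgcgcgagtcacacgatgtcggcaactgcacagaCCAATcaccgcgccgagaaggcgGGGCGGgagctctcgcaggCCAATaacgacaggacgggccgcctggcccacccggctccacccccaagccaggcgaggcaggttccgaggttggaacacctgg

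Over all libraries of a line, those with siRNA to PTPN14 or LATS included, the 3 lines differed widely in their level of these genes. HK2 had the highest mean FPKM for 21 of the 34 genes, CAKI-1 for 11 and A704 for 2, MVK and INSIG2. A704 had the lowest mean for 27. SCD, the desaturase that makes oleate from stearate, was the most abundant of these transcripts in HK2 and in CAKI-1, while ACLY, which makes cytosolic acetyl-CoA from citrate, was the most abundant in A704. FDPS, which makes farnesyl diphosphate, was among the 3 most abundant in each line. In bulk RNA such as this, fewer cells that express a gene and less RNA of it per cell cannot be told apart.

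**Figure D1:**
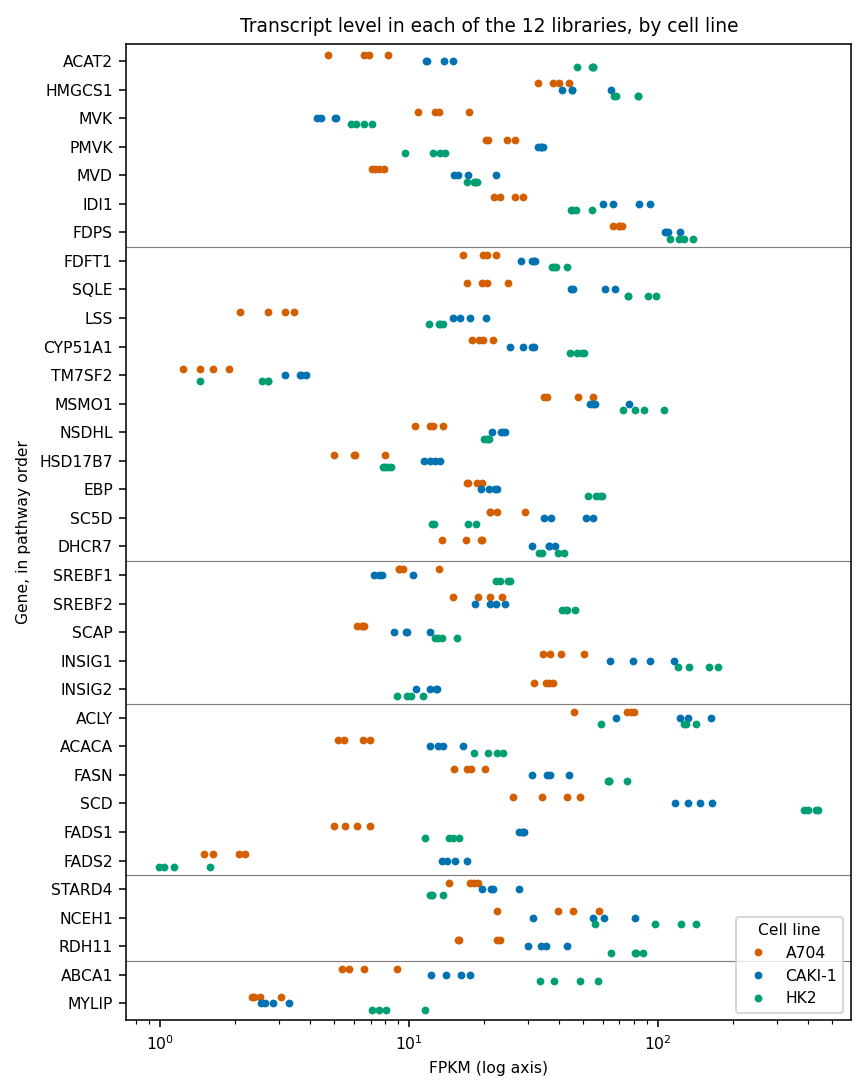
FPKM (log axis) of 34 sterol and fatty acid genes in each of the 12 libraries, with a point per library and a colour per line. The 4 libraries of HK2 lie above the 8 others for SCD and ACAT2, those of CAKI-1 for FADS2, and those of A704 for INSIG2 and MVK.

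In A704 against HK2, 28 of the 34 genes were lower and 6 higher, all past the threshold by limma with Benjamini-Hochberg adjustment at 0.05 over the 12276 genes tested. The lines differ at most genes: 84.6% of all genes passed in this comparison, with 44.0% of all genes lower and 40.6% higher. Passing the test thus says little, and the sizes say more. The median log2 difference was -1.09 over the 34 genes and -0.04 over all genes. SCD averaged 37.9 ± 9.93 FPKM in A704 and 415 ± 25.3 FPKM in HK2 (SD over the 4 libraries of a line, which differ in siRNA), a log2 difference of -3.46 (SE 0.12). ACAT2, the thiolase that makes acetoacetyl-CoA, averaged 6.62 ± 1.45 FPKM in A704 and 52.8 ± 3.78 FPKM in HK2 (SD, n = 4 each), a log2 difference of -2.84 (SE 0.08). Its exons share 26.5% of their bases with SOD2 on the opposite strand, and the strand setting of the counting is not given in the sources used here. ABCA1, which exports cholesterol to apolipoprotein A-I, was 2.57 lower on the log2 scale in A704 (SE 0.09), at 5.38 to 8.90 FPKM against 33.7 to 57.6 FPKM in HK2.

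The 3 largest differences in the other direction were those of INSIG2, MVK and PMVK. INSIG2 averaged 35.4 ± 2.56 FPKM in A704 and 10.1 ± 1.00 FPKM in HK2 (SD, n = 4 each), a log2 difference of 1.72 (SE 0.08). INSIG1, which has the same retention role, went the other way between these lines, at 34.5 to 50.2 FPKM in A704 and 119.9 to 174 FPKM in HK2, and the ranges did not overlap. The mevalonate kinases MVK and PMVK were 0.96 and 0.87 higher in A704 on the log2 scale (SE 0.08 each).

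In CAKI-1 against HK2, 19 genes were lower and 11 higher, where 81.7% of all genes passed, 41.3% lower and 40.4% higher. The median log2 difference was -0.40 over the 34 genes and -0.01 over all genes. FADS2, the delta-6 desaturase of polyunsaturated fatty acids, averaged 15.0 ± 1.58 FPKM in CAKI-1 and 1.18 ± 0.27 FPKM in HK2 (SD, n = 4 each), a log2 difference of 2.88 (SE 0.08). SC5D, the lathosterol desaturase, was 1.49 higher in CAKI-1 (SE 0.10), at 35.0 to 54.7 FPKM against 12.4 to 18.6 FPKM in HK2. PMVK was 1.40 higher in CAKI-1 (SE 0.08). ACAT2, SCD and ABCA1 were lower in CAKI-1 as they were in A704, by log2 differences of -1.94 (SE 0.08), -1.56 (SE 0.12) and -1.49 (SE 0.09). Both comparisons share the HK2 libraries. The call of INSIG2 in this comparison was lost without the HK2 control library (adjusted p = 0.0613 by limma), and that of NSDHL without any 1 of CAKI-1 PTPN14-1, CAKI-1 PTPN14-2, CAKI-1 control, HK2 PTPN14-2 or HK2 LATS (adjusted p up to 0.0808 by limma).

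A704 against CAKI-1 gave 29 genes lower and 3 higher, where 81.1% of all genes passed, 41.8% lower and 39.3% higher. FADS1, the delta-5 desaturase, averaged 5.90 ± 0.84 FPKM in A704 and 28.4 ± 0.63 FPKM in CAKI-1 (SD, n = 4 each), a log2 difference of -2.10 (SE 0.10). FADS2 and LSS, the cyclase that makes lanosterol, were lower in A704 by log2 differences of -2.50 (SE 0.08) and -2.25 (SE 0.09). INSIG2 and MVK were higher in A704, by 1.47 and 1.33 (SE 0.08 each). SREBF1 was 0.28 higher in A704 (SE 0.11, adjusted p = 0.0385 by limma), with overlapping ranges of 9.06 to 13.1 FPKM in A704 and 7.24 to 10.3 FPKM in CAKI-1. Its call was lost without any 1 of 6 libraries, the PTPN14-1 and PTPN14-2 libraries of A704 and of CAKI-1, the CAKI-1 control and the HK2 LATS library (adjusted p up to 0.193 by limma). The 4 libraries of A704 all lay below the 4 of CAKI-1 for 24 genes and above them for 2, where 35.4 and 33.4% of all genes did so.

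Against control siRNA the log2 estimates of the 34 genes lay between -0.88 and 0.53, a smaller span than the -3.46 to 2.88 between lines. With PTPN14-1, 9 of the 34 genes were higher than with control siRNA and none was lower by limma with Benjamini-Hochberg adjustment, where 5.87% of all genes tested passed, 2.39% higher and 3.47% lower. The 9 genes spanned 5 of the 6 groups: ACAT2 of the mevalonate branch, SQLE, MSMO1 and DHCR7 of the steps after squalene, INSIG1 and SREBF2 of the control genes, RDH11, and the LXR targets ABCA1 and MYLIP. None of the 6 fatty acid genes passed. The median log2 change was 0.16 over the 34 genes and 0.00 over all genes, and 18 of the 34 were higher than control in every line, as were 20.6% of all genes. The count of 9 became 0 when the HK2 line was left out, 3 without A704 and 3 without CAKI-1, fits that hold fewer libraries. It was 3 with no filter on low values. Of the 9 genes only INSIG1 and MSMO1 passed without A704, so that count includes a gene outside the 9.

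MSMO1, the C-4 sterol methyl oxidase, was at 54.6, 76.6 and 106 FPKM in A704, CAKI-1 and HK2 with PTPN14-1, against 34.9, 53.3 and 81.0 FPKM with control siRNA. It was the highest library of its line in each line. The log2 change was 0.51 (SE 0.09, adjusted p = 0.0067 by limma), and it held with any 1 of the 12 libraries left out (adjusted p up to 0.0382) but not without the HK2 line (adjusted p = 0.0812). INSIG1 was at 50.2, 92.7 and 174 FPKM in A704, CAKI-1 and HK2 with PTPN14-1, against 34.5, 64.1 and 119.9 FPKM with control siRNA. Each line thus gave a PTPN14-1 value above its control, and the log2 change was 0.53 (SE 0.10, adjusted p = 0.0118 by limma). The INSIG1 call was lost without the CAKI-1 control, the HK2 control or the HK2 PTPN14-1 library (adjusted p up to 0.0761).

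ABCA1 was at 8.90, 16.2 and 57.6 FPKM in A704, CAKI-1 and HK2 with PTPN14-1, against 5.38, 12.2 and 38.3 FPKM with control siRNA. The change was upward in every line, with a log2 estimate of 0.53 (SE 0.10, adjusted p = 0.0115 by limma), and it was lost without the CAKI-1 control or the HK2 PTPN14-1 library (adjusted p up to 0.066). MYLIP was at 3.04, 3.28 and 11.6 FPKM with PTPN14-1 in those lines, against 2.34, 2.64 and 7.56 FPKM with control. It was higher in every line, the log2 change was 0.36 (SE 0.09, adjusted p = 0.0445 by limma), and its call held without A704 PTPN14-1, CAKI-1 LATS or HK2 LATS and was lost without any 1 of the 9 other libraries (adjusted p up to 0.194).

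Among the later steps of cholesterol synthesis, SQLE, the epoxidase that commits squalene to sterol, was at 25.0, 61.2 and 97.8 FPKM in A704, CAKI-1 and HK2 with PTPN14-1, against 17.0, 44.8 and 75.8 FPKM with control. DHCR7, the reductase that makes cholesterol from its last precursor, was at 19.4, 36.6 and 42.0 FPKM with PTPN14-1, against 13.6, 31.1 and 33.2 FPKM with control. Both were above control in all 3 lines, by log2 changes of 0.44 (SE 0.10, adjusted p = 0.0226 by limma) for SQLE and 0.35 (SE 0.08, adjusted p = 0.0341) for DHCR7. Neither call held in every leave-one-out fit. That of SQLE was lost without A704 PTPN14-1, HK2 PTPN14-1 or any 1 control library (adjusted p up to 0.0975), and that of DHCR7 without those 5 libraries or HK2 PTPN14-2 (adjusted p up to 0.159).

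ACAT2 was at 8.25, 15.1 and 55.0 FPKM in A704, CAKI-1 and HK2 with PTPN14-1, against 4.73, 11.8 and 47.2 FPKM with control. SREBF2 was at 23.6, 22.2 and 46.5 FPKM with PTPN14-1, against 15.0, 18.3 and 41.1 FPKM with control. RDH11, a retinol dehydrogenase known as a sterol-responsive transcript, was at 22.5, 35.4 and 81.7 FPKM with PTPN14-1, against 15.7, 29.9 and 64.9 FPKM with control. All 3 transcripts were above control in every line, with log2 changes of 0.41 (SE 0.09, adjusted p = 0.0246 by limma) for ACAT2, 0.35 (SE 0.09, adjusted p = 0.0414) for SREBF2 and 0.35 (SE 0.09, adjusted p = 0.042) for RDH11. The ACAT2 call was lost without A704 PTPN14-1, CAKI-1 PTPN14-1, the A704 control or the HK2 control (adjusted p up to 0.124). The SREBF2 call held without CAKI-1 PTPN14-1, CAKI-1 LATS, HK2 LATS or the HK2 control and was lost without any 1 of the 8 others (adjusted p up to 0.192). The RDH11 call held without CAKI-1 PTPN14-1 or any 1 LATS library and was lost without any 1 of the 8 others (adjusted p up to 0.155). With quantile normalisation the adjusted p was 0.0569 for SREBF2 and 0.0523 for RDH11, and with limma without trend and robust moderation it was 0.0507 for RDH11.

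The 25 genes that did not pass with PTPN14-1 had log2 estimates between -0.27 for TM7SF2 and 0.36 for SC5D. TM7SF2, a sterol reductase, was at 1.44, 3.18 and 1.44 FPKM in A704, CAKI-1 and HK2 with PTPN14-1, against 1.63, 3.65 and 2.55 FPKM with control, and PMVK at 20.4, 33.0 and 9.62 FPKM, against 24.7, 34.6 and 13.3 FPKM with control. These were the 2 genes below control in every line, and neither passed. For CYP51A1, the lanosterol demethylase, with an estimate of 0.16, 79.4% of the exon bases are shared with a same-strand annotation (AC000120.2), so reads could be split between them. Summed over its 11 genes, the branch from squalene to cholesterol stood at 209, 367 and 452 FPKM in A704, CAKI-1 and HK2 with PTPN14-1, against 157.5, 291 and 387 FPKM with control. The sum of the 7 mevalonate genes was at 184, 305 and 314 FPKM with PTPN14-1, against 169.5, 287 and 319 FPKM with control, so it lay above control in A704 and CAKI-1 and below it in HK2.

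**Figure D2:**
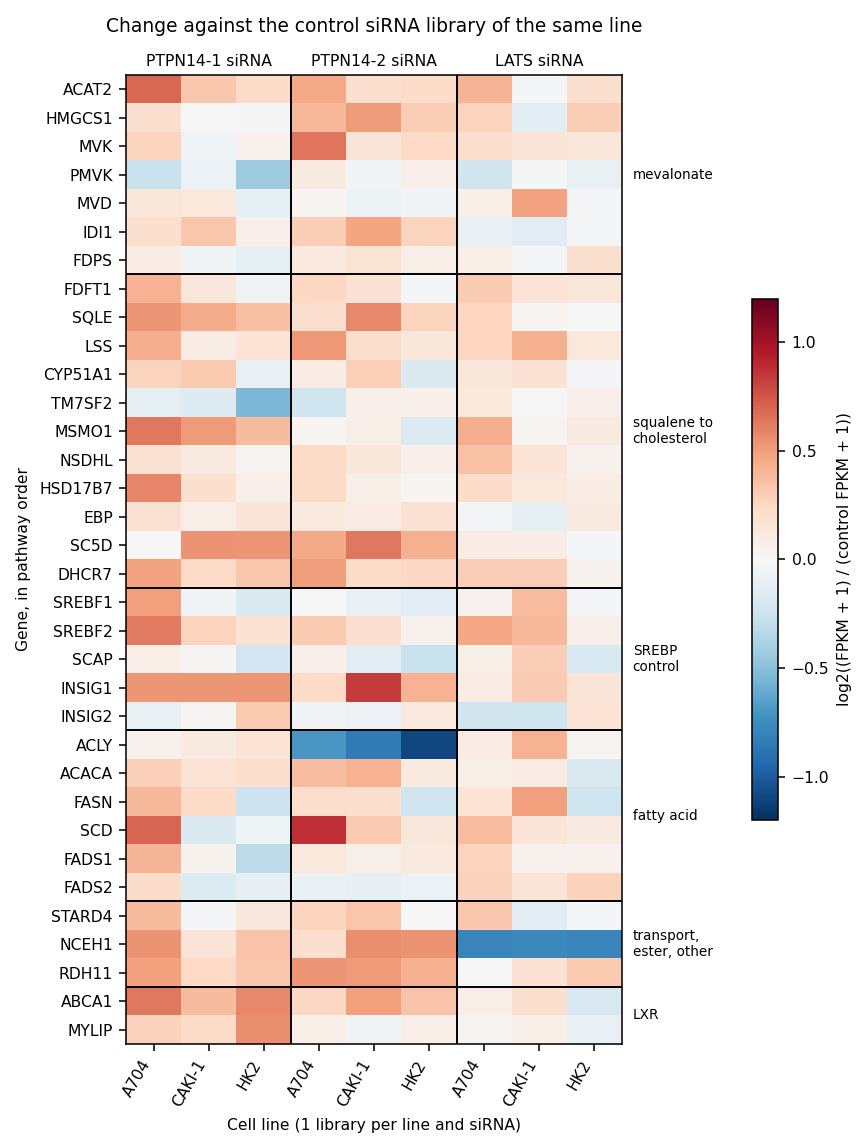
Log2 ratio of (FPKM + 1) with each siRNA to the control library of the same line, for 34 genes in pathway order (rows) and 9 libraries (columns, 1 per line and siRNA), red for higher and blue for lower. With PTPN14-2 the ACLY row is blue in all 3 lines, with LATS siRNA the NCEH1 row is blue in all 3 lines, and 18 rows are above 0 in all 3 lines with PTPN14-1.

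With PTPN14-2, 3 of the 34 genes were higher than control (INSIG1, RDH11 and SC5D) and 1 was lower (ACLY), where 1.35% of all genes passed, 0.448% higher and 0.904% lower. The median log2 change was 0.14 over the 34 genes and 0.00 over all genes, and 21 of the 34 were higher in every line, as were 20.9% of all genes. ACLY was at 46.0, 67.5 and 59.1 FPKM in A704, CAKI-1 and HK2 with PTPN14-2, against 75.3, 123 and 127 FPKM with control siRNA. The PTPN14-2 library was the lowest of its line in each line, at 61.1, 55.1 and 46.6% of control. The log2 change was -0.88 (SE 0.10, adjusted p = 0.00095 by limma) and held with any 1 library left out (adjusted p up to 0.0107) but not without the HK2 line (adjusted p = 0.053). The gene spans chr17:41866908-41930542 on the minus strand in the GENCODE annotation of GRCh38. The other 5 fatty acid genes did not pass, with log2 estimates from -0.08 for FADS2 to 0.44 for SCD.

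INSIG1 was at 40.9, 116 and 161 FPKM in A704, CAKI-1 and HK2 with PTPN14-2, against 34.5, 64.1 and 119.9 FPKM with control. SC5D was at 29.3, 54.7 and 17.3 FPKM with PTPN14-2, against 21.1, 35.0 and 12.6 FPKM with control, and RDH11 at 23.1, 43.1 and 87.3 FPKM, against 15.7, 29.9 and 64.9 FPKM with control. Each was above control in every line, with log2 changes of 0.50 (SE 0.10, adjusted p = 0.0331 by limma) for INSIG1, 0.51 (SE 0.11, adjusted p = 0.0428) for SC5D and 0.49 (SE 0.09, adjusted p = 0.0211) for RDH11. The RDH11 call was lost without any 1 PTPN14-2 or control library (adjusted p up to 0.118). The INSIG1 call was lost without any 1 control library, CAKI-1 PTPN14-2, HK2 PTPN14-2, A704 LATS or HK2 LATS (adjusted p up to 0.191), and the SC5D call without any 1 PTPN14-2 or control library, A704 LATS or HK2 LATS (adjusted p up to 0.21). The adjusted p of SC5D was 0.0529 with quantile normalisation and 0.0557 by limma without trend and robust moderation.

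HMGCS1, the synthase that precedes mevalonate, did not pass but was at 43.7, 64.5 and 83.3 FPKM in A704, CAKI-1 and HK2 with PTPN14-2, against 33.0, 45.1 and 67.6 FPKM with control, a log2 estimate of 0.40 (SE 0.10). The sum of the 7 mevalonate genes was at 202, 347 and 359 FPKM with PTPN14-2, against 169.5, 287 and 319 FPKM with control, above control in each line. The sum from squalene to cholesterol was at 185, 357 and 407 FPKM, against 157.5, 291 and 387 FPKM with control, also above control in each line. With LATS siRNA this sum was at 189, 317 and 404 FPKM, above control in each line too. The mevalonate sum with LATS siRNA was at 179, 282.5 and 357 FPKM, below control in CAKI-1 and above it in A704 and HK2. With 1 of the 12 libraries left out, between 1 and 6 of the 34 genes passed with PTPN14-2.

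LATS siRNA changed 1 of the 34 genes, NCEH1, which was lower, where 0.122% of all genes passed, 0.0978% lower and 0.0244% higher. NCEH1 encodes a hydrolase of cholesteryl esters and lies at chr3:172630249-172711218 on the minus strand in the GENCODE annotation of GRCh38. It was at 22.5, 31.6 and 55.8 FPKM in A704, CAKI-1 and HK2 with LATS siRNA, against 39.6, 54.6 and 97.4 FPKM with control, which is 56.8, 57.9 and 57.3% of control. The LATS library was the lowest of its line in each line. The log2 change was -0.78 (SE 0.11, adjusted p = 0.0243 by limma), and the call was lost without any 1 LATS or control library (adjusted p up to 0.146), without the CAKI-1 or the HK2 line (adjusted p up to 0.342) and with no filter on low values (adjusted p = 0.109). The promoter of NCEH1 printed above holds a CCAAT match and neither of the other 2 motifs. Over the 34 genes the median log2 change was 0.14, against 0.00 over all genes, with 16 higher in every line where 18.2% of all genes were. The 33 other genes had estimates between -0.12 for PMVK and 0.31 for SREBF2. Of the genes that passed with PTPN14-1, MSMO1, INSIG1, SQLE, DHCR7, SREBF2 and RDH11 were also above control in every line with LATS siRNA. ACAT2, ABCA1 and MYLIP were above it in 2 lines each. These 3 comparisons share the control libraries, so the upward medians of PTPN14-1, PTPN14-2 and LATS siRNA against control are not independent of one another. The A704 control library, whose RNA integrity number of 9.6 was the only one below 10, and the HK2 control library each moved at least 1 of these medians by over 1.5 times. The medians were 0.14, 0.10 and 0.07 for PTPN14-1, PTPN14-2 and LATS siRNA without the A704 control, and 0.25, 0.22 and 0.19 without the HK2 control; the part of RNA integrity in them was not tested.

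**Figure D3:**
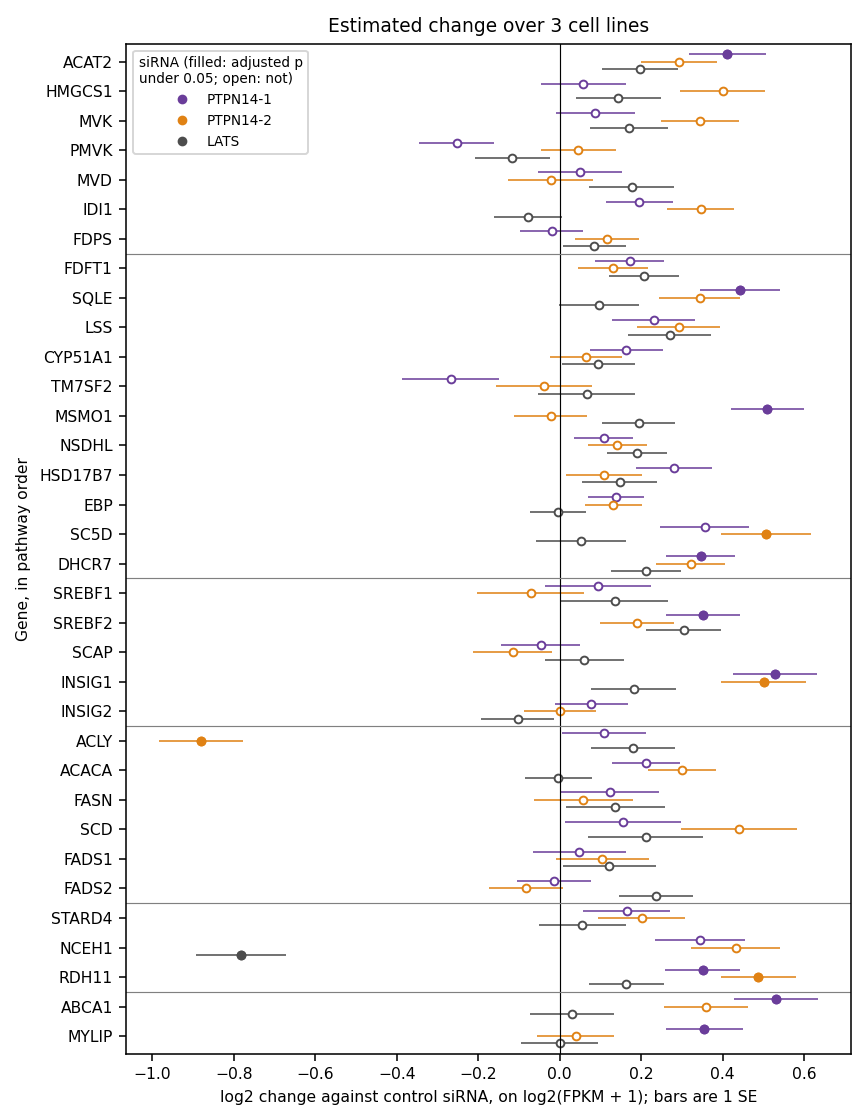
Estimated log2 change against control siRNA on the log2(FPKM + 1) scale over 3 lines for each of 34 genes (rows, in pathway order), with bars of 1 SE, for PTPN14-1, PTPN14-2 and LATS siRNA; filled points passed the adjusted threshold of 0.05. ACLY with PTPN14-2 at -0.88 and NCEH1 with LATS siRNA at -0.78 are the points farthest left, and the 9 filled PTPN14-1 points all lie right of 0.

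Comparisons among the siRNAs take their difference from no control library. PTPN14-1 against PTPN14-2 gave 3 of the 34 genes higher with PTPN14-1 (ACLY, MSMO1 and MYLIP) and none lower, where 11.7% of all genes passed, 5.52% higher and 6.18% lower. Of the 34 genes, 8 were higher with PTPN14-1 in every line and 8 lower, as were 24.9 and 23.2% of all genes. ACLY was at 78.2, 132 and 142 FPKM in A704, CAKI-1 and HK2 with PTPN14-1, against 46.0, 67.5 and 59.1 FPKM with PTPN14-2. The ranges did not overlap, and the log2 difference was 0.99 (SE 0.10, 95% interval 0.76 to 1.21, adjusted p = 0.000121 by limma). MSMO1 was at 35.7, 55.9 and 72.2 FPKM with PTPN14-2, lower than with PTPN14-1 in every line, and the log2 difference was 0.53 (SE 0.09, adjusted p = 0.00268). Both calls held with any 1 library left out, with adjusted p up to 0.00151 for ACLY and 0.0197 for MSMO1; without the HK2 line that of MSMO1 was 0.0502. MYLIP differed by 0.32 (SE 0.09, adjusted p = 0.0465), and its call was lost without any 1 library other than CAKI-1 LATS and HK2 LATS (adjusted p up to 0.195) and with median-of-ratios scaling (adjusted p = 0.0508). For INSIG1 the difference between the PTPN14 siRNAs was 0.03 with a 95% interval of -0.20 to 0.25.

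The mean of both PTPN14 siRNAs was then set against LATS siRNA. NCEH1, IDI1, ABCA1 and SC5D were higher with the PTPN14 siRNAs and ACLY was lower, where 4.37% of all genes passed, 2.05% higher and 2.32% lower. NCEH1 was at 58.0, 60.6 and 124 FPKM in A704, CAKI-1 and HK2 with PTPN14-1 and at 45.5, 80.7 and 142 FPKM with PTPN14-2, against 22.5, 31.6 and 55.8 FPKM with LATS siRNA. All PTPN14 libraries lay above the LATS library of their line, with a log2 difference of 1.17 (SE 0.10, adjusted p = 4.32e-05 by limma), and the call held with any 1 library left out (adjusted p up to 0.00221). IDI1, the isomerase that makes dimethylallyl diphosphate, was at 26.7, 83.8 and 46.9 FPKM with PTPN14-1 and at 28.8, 92.5 and 54.3 FPKM with PTPN14-2, against 21.8, 60.1 and 44.6 FPKM with LATS siRNA.

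IDI1 was above the LATS library in every line with both PTPN14 siRNAs, and its log2 difference was 0.35 (SE 0.07, adjusted p = 0.0223 by limma). It was lost without A704 LATS, CAKI-1 LATS, CAKI-1 PTPN14-1 or CAKI-1 PTPN14-2 (adjusted p up to 0.168). ABCA1 was at 5.74, 14.0 and 33.7 FPKM in A704, CAKI-1 and HK2 with LATS siRNA, below both PTPN14 siRNAs in each line. Its difference was 0.42 (SE 0.09, adjusted p = 0.0264) and was lost without any 1 LATS library, CAKI-1 PTPN14-2 or HK2 PTPN14-1 (adjusted p up to 0.088). SC5D differed by 0.38 (SE 0.10, adjusted p = 0.044), with 22.5, 37.3 and 12.4 FPKM in the LATS libraries. SC5D was at 21.2, 51.2 and 18.6 FPKM with PTPN14-1 and at 29.3, 54.7 and 17.3 FPKM with PTPN14-2. In A704 the PTPN14-1 value lay below the LATS value, and the call held with 1 of the 12 libraries left out, A704 PTPN14-1, and was lost without any 1 of the others (adjusted p up to 0.241), with quantile normalisation (0.0508) and without trend and robust moderation (0.0526).

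The ACLY difference between the PTPN14 siRNAs and LATS siRNA was -0.57 (SE 0.09, adjusted p = 0.00744 by limma), and it averages siRNAs that themselves differed for this gene. With LATS siRNA ACLY was at 80.2, 164 and 129.9 FPKM in A704, CAKI-1 and HK2, above PTPN14-1 in A704 and CAKI-1 and below it in HK2. The call was lost without CAKI-1 LATS (adjusted p = 0.0731). Both PTPN14 siRNAs lay above LATS siRNA in every line for 8 of the 34 genes (NCEH1, ACAT2, INSIG1, ABCA1, IDI1, RDH11, ACACA and EBP), where 8.54% of all genes did, and below it for FADS2, where 7.86% did. None of the 34 genes passed the test of an siRNA effect that differs between lines in limma, in which 0% of all genes passed. None of the 34 and 0.969% of all genes had an unadjusted p under 0.05. The spread in this test comes from differences between the PTPN14 siRNAs, and 11.7% of all genes passed between those siRNAs. The test therefore cannot show that siRNA effects were alike in the lines.

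**Figure D4:**
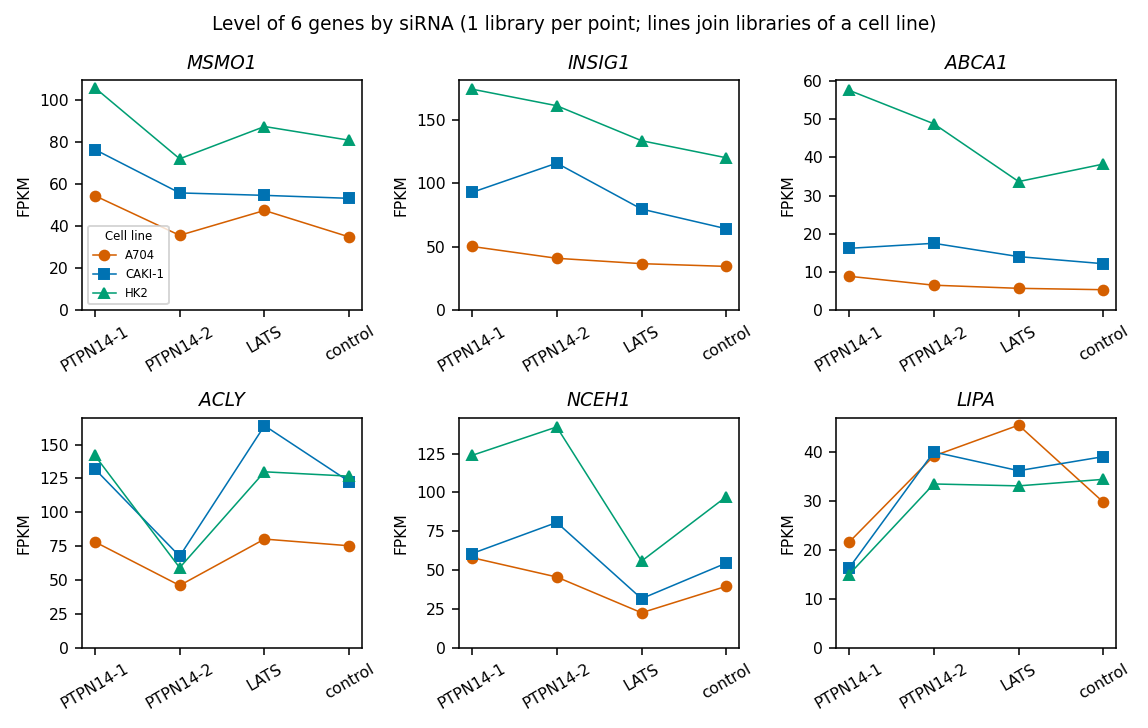
FPKM of MSMO1, INSIG1, ABCA1, ACLY, NCEH1 and LIPA in the 12 libraries, with PTPN14-1, PTPN14-2, LATS and control siRNA along the axis and a line joining the libraries of each cell line. ACLY is lowest with PTPN14-2 in each line, NCEH1 is lowest with LATS siRNA in each line, and LIPA is lowest with PTPN14-1 in each line.

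A second list of 40 genes gives the rest of the pathway, and all 40 were tested. With PTPN14-1, none of the 40 was higher and 2 were lower, LIPA and NR1H3, where 2.39% of all genes were higher and 3.47% lower, so the count is near that of genes at large. LIPA, the lysosomal acid lipase that hydrolyses cholesteryl esters of endocytosed lipoproteins, was at 21.6, 16.3 and 15.0 FPKM in A704, CAKI-1 and HK2 with PTPN14-1, against 29.8, 39.1 and 34.5 FPKM with control. It was the lowest library of its line in each line, and the log2 change was -0.94 (SE 0.13, adjusted p = 0.00176 by limma), a call that held with any 1 library left out (adjusted p up to 0.0155) and was lost without the HK2 line (adjusted p = 0.0774). NR1H3, which encodes LXR alpha, was at 3.29, 1.33 and 1.36 FPKM with PTPN14-1, against 4.95, 2.22 and 2.00 FPKM with control. Its log2 change was -0.43 (SE 0.08, adjusted p = 0.0105), opposite in sign to those of the LXR targets ABCA1 and MYLIP, and it was lost without the A704 or the CAKI-1 control library (adjusted p up to 0.0517). ME1, the cytosolic malic enzyme, had a log2 estimate of 0.39 and ERLIN2, an endoplasmic reticulum scaffold, one of -0.24, with adjusted p of 0.0602 and 0.0882.

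With PTPN14-2, 1 of the 40 genes was higher, ACSS2, which makes acetyl-CoA from acetate, and none was lower, where 0.448% of all genes were higher and 0.904% lower. Its log2 change was 0.47 (SE 0.09, adjusted p = 0.0249 by limma) and was lost without A704 PTPN14-2, HK2 PTPN14-2 or any 1 control library (adjusted p up to 0.127). ACSS2 was thus higher with the siRNA with which ACLY, the other cytosolic source of acetyl-CoA, was lower. The next 3 genes by p were ERLIN1, ELOVL7 and RNF139, with adjusted p of 0.121, 0.168 and 0.179. With LATS siRNA none of the 40 passed in limma and 5 had an unadjusted p under 0.05, where 11.2% of all genes did; LPCAT3, TECR and CPT1A were among those with the smallest p, and LPCAT3 had an adjusted p of 0.283.

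Between the PTPN14 siRNAs, 6 of the 40 genes were lower with PTPN14-1 and none was higher, where 6.18% of all genes were lower and 5.52% higher. LIPA differed by -1.07 (adjusted p = 0.000325 by limma), a call that held with any 1 library left out (adjusted p up to 0.00358). ERLIN2 differed by -0.37 (adjusted p = 0.00988), ACSS2 by -0.40 (adjusted p = 0.0145) and MBTPS2, a protease that releases the sterol-regulated factors, by -0.32 (adjusted p = 0.016), and NR1H3 and TMEM97 also passed. Without A704 PTPN14-2 the adjusted p of ERLIN2 was 0.0553. The ACSS2 call was lost without A704 PTPN14-2, HK2 PTPN14-2 or HK2 PTPN14-1 (adjusted p up to 0.0758), and the MBTPS2 call without A704 PTPN14-2, CAKI-1 PTPN14-2 or HK2 PTPN14-1 (adjusted p up to 0.0746). The call of NR1H3 was lost without A704 PTPN14-1, A704 PTPN14-2, CAKI-1 PTPN14-1 or HK2 PTPN14-2 (adjusted p up to 0.109), and that of TMEM97 without any 1 of the 10 libraries other than CAKI-1 PTPN14-1 and CAKI-1 LATS (adjusted p up to 0.197) and without trend and robust moderation (0.0569).

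Against LATS siRNA 3 of the 40 genes passed, where 4.37% of all genes did, 2.05% higher and 2.32% lower. ACSL4, an acyl-CoA synthetase, was higher with the PTPN14 siRNAs, by 0.27 (adjusted p = 0.0356 by limma), and LIPA and NR1H3 were lower, by log2 differences of -0.55 (adjusted p = 0.0206) and -0.30 (adjusted p = 0.0329). For LIPA and NR1H3 these differences average siRNAs that themselves differed. With PTPN14-2, LIPA was at 39.3, 40.1 and 33.5 FPKM in A704, CAKI-1 and HK2. It thus lay below the LATS library in A704 and above it in CAKI-1 and HK2. The LIPA call was lost without A704 LATS, CAKI-1 LATS or CAKI-1 PTPN14-1 (adjusted p up to 0.0892), and that of ACSL4 without any 1 PTPN14-2 or LATS library or HK2 PTPN14-1 (up to 0.168). The NR1H3 call held without A704 PTPN14-1, HK2 PTPN14-1, the A704 control or the HK2 control and was lost without any 1 of the 8 others (adjusted p up to 0.23) and with quantile normalisation (0.0569). Of the cholesteryl ester hydrolases, NCEH1 was lower than control with LATS siRNA, and LIPA was lower than control with PTPN14-1. LIPA was at 45.6, 36.3 and 33.1 FPKM with LATS siRNA in A704, CAKI-1 and HK2, and NCEH1 at 58.0, 60.6 and 124 FPKM with PTPN14-1, above control in each line but not past the threshold.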

How the data were processed

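PolyA RNA of 12 libraries was sequenced with a strand-marking kit, per the labels. The submitters' processing notes name STAR 2.4.0g1 and the build GRCh38.p1. The sources used here name no program, annotation or strand setting for counting genes. The authors' table, as deposited, lists FPKM by gene symbol to 2 decimals, a unit inferred from the values. The planned count test therefore gave way to its stated alternative for normalised values.

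Values were tested as log2(FPKM + 1), which understates changes of low genes, over the 12276 genes above 1 FPKM in at least 3 of the libraries. Limma 3.58.1 in R 4.3.3 was used with robust moderation (statmod 1.5.0) and a mean-variance trend, cell line as a block and the 4 reagents as terms (6 residual degrees of freedom), with Benjamini-Hochberg adjustment at 0.05 over all genes tested. The 9 line and target groups served for the line-by-target interaction, whose 3 residual degrees of freedom come from the PTPN14 pairs. Libraries pair by cell line: their deviations from the reagent means correlated at 0.958 or more within a line. The fitting script was tested on simulated data.

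Whole-read steps in the low values of single-exon genes gave the effective depth of 17.0 to 23.4 M reads: 79.6 to 95.7% of those genes fell on the best step within the table's rounding, against medians of 0 to 6.5% for other steps. It is approximate because the gene lengths used by the authors are unknown.

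In the GENCODE annotation of GRCh38, MVK, SREBF1, FADS1, FADS2 and RDH11 share 4.4 to 6.9% of their exon bases with a neighbour, so some of their reads are uncertain. ACACA stood on 2 rows, of which the second, all 0, was not used. The 36 genes, the list of 40 other pathway genes and the tests were chosen with earlier results of these data known. Every gene past the threshold in an siRNA comparison is named, the 3 largest differences in each direction between lines, and the 4 smallest p-values of the other pathway genes in each siRNA comparison, except 1 gene not reported here; others named for their values (TM7SF2, PMVK, HMGCS1) were chosen after these were seen. Alternatives were a pseudocount of 0.1, no filter on low values, quantile and median-of-ratios scaling, limma without trend, no replicate block, and leaving out each library and each line.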

Additional observations from a re-analysis of the deposited data

Results flagged for a closer look

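For each tested gene and line, the 4 libraries of the line were examined for a value far from the other 3, by Dixon's criterion for the gap to the nearest value over the whole range. This singled out 10 of 102 sets of 4, where chance gives about 1 in 20. The share over all genes was not computed, so the count does not set these genes apart from others. The 4 libraries of a line differ in siRNA, so a response to 1 siRNA meets the criterion too.

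Among sterol synthesis genes, MSMO1 stood at 76.6 FPKM in CAKI-1 with PTPN14-1 against 53.3 to 55.9 FPKM in the other 3 CAKI-1 libraries, and HMGCS1 at 64.5 FPKM in CAKI-1 with PTPN14-2 against 41.2 to 45.1 FPKM. FDPS was at 122.5 FPKM in CAKI-1 with PTPN14-2 against 107 to 109 FPKM in the other CAKI-1 libraries. TM7SF2 was at 1.44 FPKM in HK2 with PTPN14-1 against 2.55 to 2.71 FPKM in the other HK2 libraries. ACAT2 was at 47.2 FPKM in the HK2 control, below the 54.1 to 55.0 FPKM of the HK2 libraries with an siRNA to a target.

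Among fatty acid genes, ACLY was at 46.0 FPKM in A704 with PTPN14-2 against 75.3 to 80.2 FPKM in the other A704 libraries, and FASN at 75.0 FPKM in the HK2 control against 62.9 to 63.4 FPKM in the other HK2 libraries. SREBF1 was at 13.1 FPKM in A704 with PTPN14-1 against 9.06 to 9.45 FPKM in the other A704 libraries, and at 10.3 FPKM in CAKI-1 with LATS siRNA against 7.24 to 7.74 FPKM in the other CAKI-1 libraries. STARD4 was at 13.7 FPKM in HK2 with PTPN14-1 against 12.1 to 12.4 FPKM in the other HK2 libraries.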

How the results depend on the processing

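No called difference of a named gene changed direction under any of the alternatives run. Counts of the 34 genes past the threshold between lines stayed within 1.5 times under every alternative, at 34 for A704 against HK2, 29 to 31 for CAKI-1 against HK2 and 31 to 32 for A704 against CAKI-1 with 1 library left out. The interaction count was 0 throughout, with a spread that came from differences between the PTPN14 siRNAs. The interaction test was not run without the block, without a line, or without a control or LATS library.

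The siRNA counts moved more. With no filter on low values, which tests more genes, they were 3 for PTPN14-1, 1 for PTPN14-2 and 0 for LATS siRNA against control, and 2 for the PTPN14 siRNAs against LATS siRNA. This setting ended the calls of ACAT2, DHCR7, SQLE, SREBF2, RDH11 and MYLIP with PTPN14-1, of INSIG1, RDH11 and SC5D with PTPN14-2, of NCEH1 with LATS siRNA, of MYLIP between the PTPN14 siRNAs, and of ABCA1, IDI1 and SC5D against LATS siRNA (adjusted p from 0.0547 to 0.14 by limma). With no replicate block, that is without pairing libraries by cell line, each of the 5 siRNA comparisons gave 0. With the A704 line left out, PTPN14-1 against control gave 3. With the CAKI-1 line left out, the counts were 3 for PTPN14-1, 1 for PTPN14-2 and 0 for LATS siRNA against control, and 1 for the PTPN14 siRNAs against LATS siRNA. With the HK2 line left out, they were 0 for PTPN14-1, 0 for PTPN14-2 and 0 for LATS siRNA against control, 1 for PTPN14-1 against PTPN14-2 and 2 for the PTPN14 siRNAs against LATS siRNA. With 1 library left out, they ranged from 2 to 9 for PTPN14-1, 1 to 6 for PTPN14-2 and 0 to 1 for LATS siRNA against control, 2 to 4 for PTPN14-1 against PTPN14-2 and 1 to 6 for the PTPN14 siRNAs against LATS siRNA. A lone library is then assumed to vary like the others. The cause of these shifts was not tested.

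Over all genes tested, 720 passed for PTPN14-1, 166 for PTPN14-2 and 15 for LATS siRNA against control, and 355, 60 and 3 with no filter. Without the HK2 line they were 66, 24 and 1. Between the PTPN14 siRNAs 1437 passed, and 428 without the HK2 line. For the PTPN14 siRNAs against LATS siRNA 537 passed, 167 with no filter and 83 without the HK2 line; with 1 library left out the count ranged from 35 to 1314. Without the block each of these was 0. Depth limits low transcripts most: ABCG1, at 0.17 FPKM or less, could not be tested. Changes of TM7SF2, FADS2, MYLIP and NR1H3 rest on few FPKM.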

Other observations

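Of the 40 other pathway genes, 3 with large differences between lines were chosen after their values were seen. SCD5, a second stearoyl-CoA desaturase, averaged 8.51 ± 0.86 FPKM in A704, 0.22 ± 0.03 FPKM in CAKI-1 and 4.64 ± 0.79 FPKM in HK2 (SD, n = 4 each). A704, which had the lowest SCD of the 3 lines, had the highest SCD5. ELOVL7, an elongase of saturated long-chain fatty acids, averaged 40.3 ± 6.50 FPKM in A704, 3.66 ± 0.88 FPKM in CAKI-1 and 4.56 ± 0.86 FPKM in HK2 (SD, n = 4 each). CPT1A, which admits fatty acids to mitochondria for oxidation, averaged 8.31 ± 1.63 FPKM in A704, 3.90 ± 1.09 FPKM in CAKI-1 and 0.21 ± 0.07 FPKM in HK2 (SD, n = 4 each), so its order ran opposite to that of SCD. The 4 libraries of A704 lay above the other 8 for all 3 genes, which were picked for such differences. Of all genes tested, 36.4% had the 4 libraries of A704 above those of HK2, and 33.4% had them above those of CAKI-1.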
